A study of Homo sapiens with 4 samples.

Results

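The genes described here are the metallothioneins MT1E, MT1F, MT1G, MT1M, MT1X and MT2A, the transcription factor MTF1 and the zinc exporter SLC30A1. They were picked by name, as the 8 genes of a metallothionein and zinc export group among the 58735 genes counted in all 4 libraries. Metallothioneins are small, cysteine-rich proteins of the cytosol that bind zinc and copper through the thiols of their cysteines. When free zinc increases, MTF1, a zinc finger protein, binds metal response elements upstream of the metallothionein genes and of SLC30A1, whose product, ZnT1, carries zinc out across the plasma membrane. Metallothionein genes are also known to respond to glucocorticoids, oxidative stress and hypoxia, and in liver they are part of the acute response to stress.

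The RNA came from wild-type MHCC-97H cells, an established line derived from a metastatic hepatocellular carcinoma, with 1 library per condition and no replicates. The cells received PBS or 2 µg of migrasomes (Migs), vesicles that migrating cells leave behind on their retraction fibers, for 24 h. Normo-Migs were released by MHCC-97H cells in normoxia, hypo-Migs by the same line in hypoxia and CD147KO-Migs by a CD147-knockout MHCC-97H line in hypoxia, and the knockout therefore lay in the donor of the Migs and not in the cells sequenced. Normoxia for the normo-Migs is as the labels and the supplementary methods have it, whereas a passage of the study's main methods gives hypoxia. The labels list several oxygen levels for hypoxia without saying which applied to these Migs, and they give all 4 libraries the same batch.

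Between 33882496 and 40285223 reads per library were counted on genes. The library labelled PBS stood apart from the others, with 251 genes at 3 reads or fewer in it and at least 100 reads in each Mig library. Of 10 hepatocyte lineage markers, KRT8 and KRT18 were abundant in every library, whereas ALB, AFP and TTR had 0 reads in all 4. Fibroblast markers (7 genes) summed to 23.7 reads per 1000000 reads on genes (CPM) in PBS and 157 to 168 CPM in the Mig libraries, endothelial markers (4 genes) to 1.12 and 3.50 to 4.07 CPM, and leukocyte markers (5 genes) to 0.236 and 1.33 to 1.83 CPM, with CD3E at 0. Within these lists, hypo-Migs differed from PBS on the log2 scale by 4.87 for PDGFRB, 2.51 for DCN and 2.34 for COL1A1 of the fibroblast markers and 2.83 for the endothelial PECAM1, and the hepatocyte gene FGB had 0 reads in PBS and 561 to 832 in the Mig libraries. Markers of the same lists also lay the other way, with 25, 2, 9 and 10 reads of SERPINA1 from PBS to CD147KO-Migs and 11, 0, 3 and 0 reads of the endothelial TEK. Of the remaining fibroblast markers, LUM had 0, 49, 65 and 72 reads in the same order and COL3A1 27, 14, 27 and 20. COL1A2 had 2, 0, 0 and 0 reads and PDGFRA 0, 0, 0 and 1. Whether what sets the PBS library apart also moved the metallothioneins was not tested, nor was whether this library came from the same stock of cells as the others. Comparisons among the Mig libraries, which do not contain it, are given for the 8 genes after those with PBS. The 3 comparisons with PBS share that library.

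All 6 metallothionein genes lie in 1 cluster on chromosome 16 (GRCh38, GENCODE annotation), in the order MT2A (chr16:56608199-56609497), MT1E (chr16:56625475-56627112), MT1M (chr16:56632233-56633986), MT1F (chr16:56657694-56660698), MT1G (chr16:56666731-56668065) and MT1X (chr16:56682424-56684196). MT1G is on the minus strand and the others are on the plus strand. MTF1 (chr1:37809567-37859620) and SLC30A1 (chr1:211571568-211578742) are both on the minus strand of chromosome 1. Each metallothionein transcript has 3 coding exons and 61 codons before the stop, of which 20, or 32.8%, encode cysteine. The corresponding shares were 2.79% for MTF1 and 3.55% for SLC30A1. The coding sequences below are those of the most abundant member, the member that differed most between libraries and the neighbor of the latter that had no reads, and capitals mark the cysteine codons (TGC or TGT) in frame.
MT2A: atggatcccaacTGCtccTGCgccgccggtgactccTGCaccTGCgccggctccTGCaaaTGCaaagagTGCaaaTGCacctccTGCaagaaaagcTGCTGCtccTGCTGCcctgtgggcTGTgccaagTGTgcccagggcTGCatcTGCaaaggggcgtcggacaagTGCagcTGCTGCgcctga
MT1E: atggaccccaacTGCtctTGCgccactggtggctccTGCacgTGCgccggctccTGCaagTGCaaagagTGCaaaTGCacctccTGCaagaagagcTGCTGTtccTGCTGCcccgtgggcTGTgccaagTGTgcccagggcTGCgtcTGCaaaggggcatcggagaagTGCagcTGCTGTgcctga
MT1M: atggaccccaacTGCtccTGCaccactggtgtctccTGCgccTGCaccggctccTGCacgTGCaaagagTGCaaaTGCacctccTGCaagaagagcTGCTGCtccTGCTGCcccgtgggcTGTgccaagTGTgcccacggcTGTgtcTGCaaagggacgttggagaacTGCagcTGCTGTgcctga
Any pair of the 6 coding sequences was between 88.7% (MT1F and MT1X) and 95.2% (MT1G and MT2A) identical, and MT1E was 92.5% identical to both MT2A and MT1M. Reads from such copies can be shared or misassigned. Of all stretches of 50 bases in a member's mRNA, the share also found letter for letter in a transcript of another gene was 4.88% for MT2A, 5.34% for MT1E, 3.59% for MT1F, 7.05% for MT1M, 20.2% for MT1G and 45.1% for MT1X. At 100 bases it was 0% for each except MT1X (19.1%), where the other gene was AC026461.1, which shares 321 exon bases with MT1X on the same strand and had 0 reads in every library.

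The RefSeq promoter table (GRCh38.p14) held 4 of the 8 genes, MT1X, MT2A, MTF1 and SLC30A1. The 250 bases before each start were searched on both strands for the core of the metal response element, the letters TGCACNC or TGCGCNC, and no match overlapped another. MT2A had 7 cores, MT1X 4, SLC30A1 1 and MTF1 0. Of the 35116 promoters in the table, 24.8% held at least 1 core, 0.37% at least 4 and 0.0313% at least 7. The sequences below show the cores of MT1X and SLC30A1 upstream of the annotated gene and the closest pair of cores of MT2A, whose upstream window lies inside a longer annotated transcript. The window of SLC30A1 does not adjoin its annotated gene, which starts at base 211578742 on the minus strand. The bases between them were not searched, so the counts of cores come from windows placed differently. Capitals mark the cores, and a core on the opposite strand reads as its reverse complement.
MT1X, chr16:56682220-56682423, plus strand: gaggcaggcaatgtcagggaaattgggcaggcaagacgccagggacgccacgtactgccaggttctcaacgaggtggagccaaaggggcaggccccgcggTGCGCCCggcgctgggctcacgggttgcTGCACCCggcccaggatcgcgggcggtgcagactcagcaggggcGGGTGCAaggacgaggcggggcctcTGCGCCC
MT2A, chr16:56608431-56608451, plus strand: TGCGCCCggcccagTGCGCGC
SLC30A1, chr1:211579162-211579411, minus strand: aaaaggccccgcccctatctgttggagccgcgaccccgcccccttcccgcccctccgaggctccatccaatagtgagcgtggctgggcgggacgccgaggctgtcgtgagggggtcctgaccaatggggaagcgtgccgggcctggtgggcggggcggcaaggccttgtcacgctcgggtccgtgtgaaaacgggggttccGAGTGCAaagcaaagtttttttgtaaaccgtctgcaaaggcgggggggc
A match of these letters is a description of the sequence, and binding of MTF1 was not measured here.

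MT2A, the most widely expressed human metallothionein, had the highest level of the 8 genes per length in every library. It had 3461 reads (102 CPM) with PBS, 8702 (252 CPM) after normo-Migs, 8016 (199 CPM) after hypo-Migs and 7660 (219 CPM) after CD147KO-Migs. The PBS library was thus the lowest and the normo-Migs library the highest. After scaling of the libraries by trimmed mean of M values (TMM), MT2A was higher than with PBS by 1.35 on the log2 scale (95% interval 1.29 to 1.41) after normo-Migs, by 0.99 (0.94 to 1.05) after hypo-Migs and by 1.12 (1.07 to 1.18) after CD147KO-Migs. Intervals here cover counting error alone, and not the spread between cultures, which 1 library per condition cannot give. In RNA of a whole culture, fewer cells that express a gene and less of its RNA per cell cannot be told apart.

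MT1E, an inducible metallothionein next to MT2A among the expressed genes of the cluster, differed most from PBS of the 8 genes. It had 339 reads (10.0 CPM) with PBS, 3579 (104 CPM) after normo-Migs, 3802 (94.4 CPM) after hypo-Migs and 3332 (95.1 CPM) after CD147KO-Migs. The 3 Mig libraries were close to each other and about an order of magnitude above PBS. Relative to PBS, MT1E was 10.7-fold higher (9.57 to 12.0) after normo-Migs, 9.64-fold (8.63 to 10.8) after hypo-Migs and 9.69-fold (8.66 to 10.9) after CD147KO-Migs. Among the 19895 genes compared, which reached 10 reads in a library, this increase ranked 935, 1035 and 1031 from the highest. Among the 6960 genes that averaged 1000 reads or more, a limit chosen after seeing the data, 1.35% were higher by as much as MT1E or more after hypo-Migs than with PBS, against 6.90% for MT2A.

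MT1X and MT1F, which are further isoforms of the MT1 family, were less abundant. MT1X had 163 reads with PBS, 334 after normo-Migs, 313 after hypo-Migs and 324 after CD147KO-Migs. Its log2 fold change against PBS was 1.04 (0.78 to 1.33) after normo-Migs, 0.72 (0.45 to 1.01) after hypo-Migs and 0.96 (0.69 to 1.25) after CD147KO-Migs. MT1F had 52, 153, 200 and 202 reads in the same order, with log2 fold changes against PBS of 1.54 (1.11 to 2.06), 1.69 (1.28 to 2.19) and 1.90 (1.49 to 2.41). For both genes PBS was the lowest library, and with so few reads their intervals were wider than those of MT2A and MT1E.

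MT1G and MT1M were at or near 0. MT1G had 7 reads after hypo-Migs, or 0.174 CPM (95% Wilson interval 0.0842 to 0.359), and 0 in the other libraries, where 0 reads allow up to 3 reads, or 0.0856 to 0.0885 CPM. MT1M had 0 reads in all 4 libraries. Neither reached 10 reads in a library, so 6 of the 8 genes were compared.

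MTF1, the metal-responsive regulator, had 1024 reads (30.2 CPM) with PBS, 1147 (33.2 CPM) after normo-Migs, 1345 (33.4 CPM) after hypo-Migs and 1133 (32.3 CPM) after CD147KO-Migs. Its log2 fold change against PBS was 0.18 (0.06 to 0.31) after normo-Migs, 0.18 (0.06 to 0.29) after hypo-Migs and 0.12 (0.00 to 0.25) after CD147KO-Migs. SLC30A1 had 4918 reads (145 CPM), 5842 (169 CPM), 7074 (176 CPM) and 5776 (165 CPM) in the same order. It was higher than with PBS by 0.27 (0.21 to 0.32), 0.31 (0.25 to 0.36) and 0.21 (0.16 to 0.27) on the log2 scale. Both genes were lowest in PBS, and even the upper bounds of these intervals were far below a doubling.

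**Figure D1:**
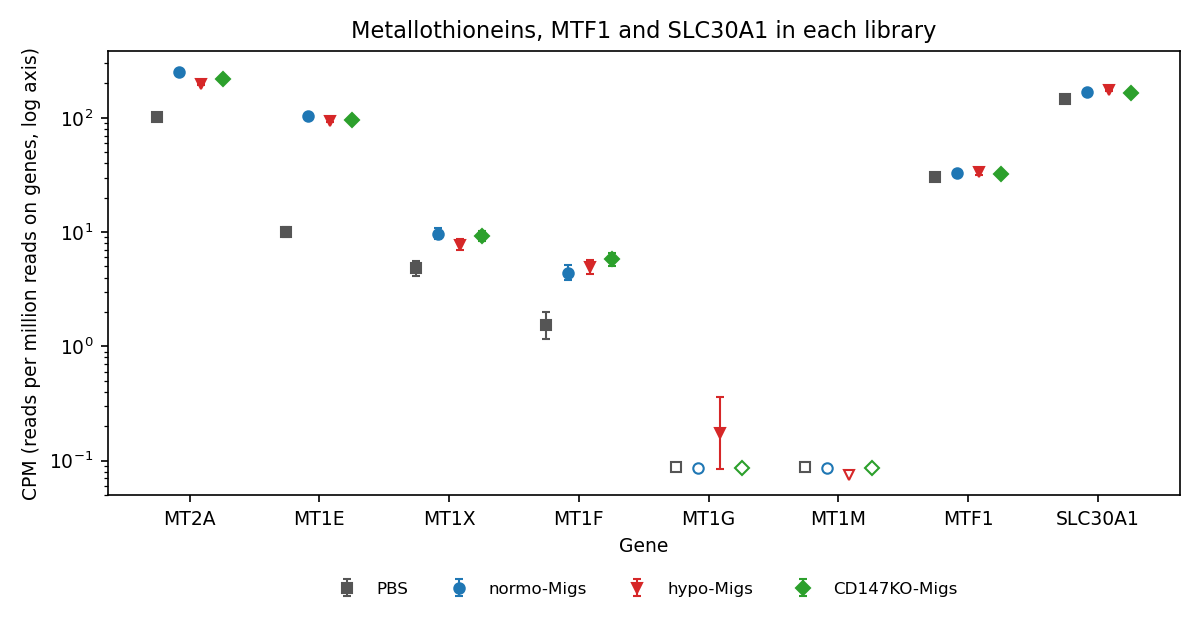
Level of each of the 8 genes in CPM (log axis) in the 4 libraries, 1 point per library, with open symbols for 0 reads drawn at the limit of 3 reads. MT1E had 10.0 CPM with PBS and 94.4 to 104 CPM with Migs, whereas MTF1 stayed between 30.2 and 33.4 CPM.

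With a 2-fold difference as the criterion, 4 of the 6 genes compared were higher after normo-Migs than with PBS (MT1E, MT1F, MT1X and MT2A), 2 after hypo-Migs (MT1E and MT1F) and 3 after CD147KO-Migs (MT1E, MT1F and MT2A), and none was lower. Of all genes compared, 18.1%, 18.9% and 18.3% were higher by this criterion. MT2A after hypo-Migs (1.99-fold, 1.91 to 2.07) and MT1X after CD147KO-Migs (1.96-fold, 1.62 to 2.38) lay just under it and MT1X after normo-Migs (2.08-fold, 1.72 to 2.52) just above it, and their intervals extended to both sides of it. The differing counts therefore do not show that the 3 kinds of Migs differed.

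**Figure D2:**
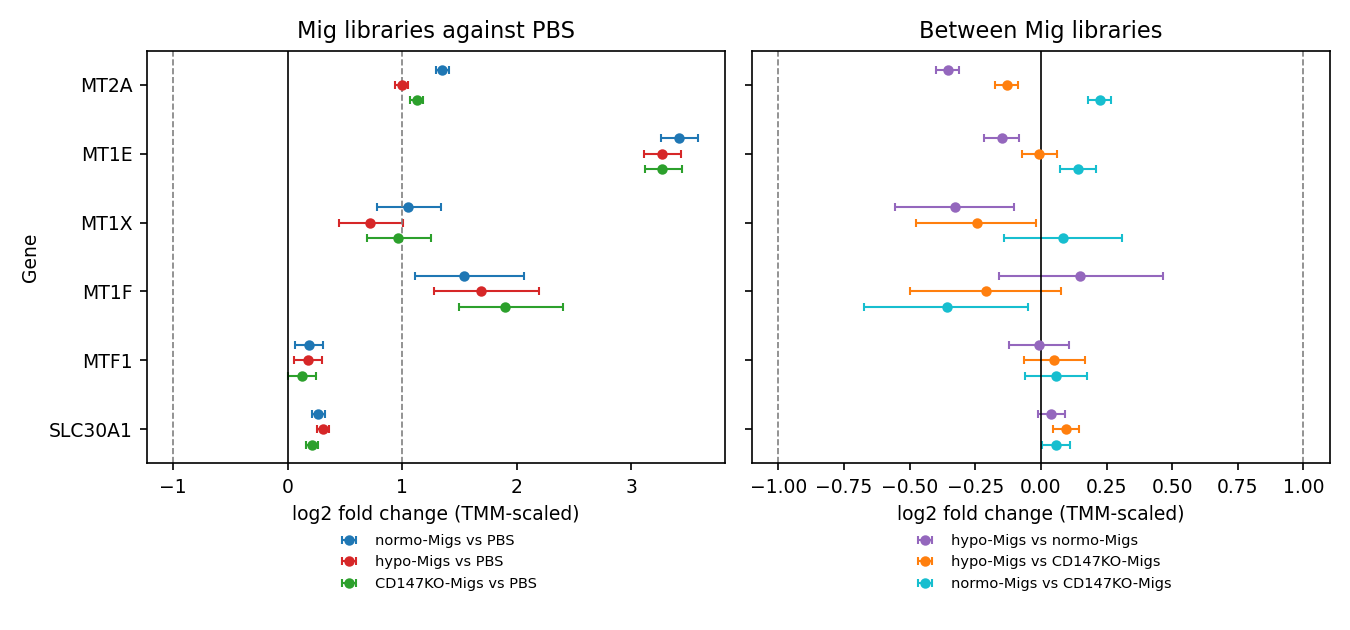
Log2 fold changes of the 6 genes compared, with exact 95% intervals of the ratio of reads (counting error), for each pair of libraries, with dashed lines at the 2-fold criterion. Against PBS the metallothioneins lay at 0.72 to 3.41 and MTF1 and SLC30A1 at 0.12 to 0.31, whereas between Mig libraries the values lay between -0.36 and 0.22.

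The comparison of hypo-Migs against normo-Migs asks whether the oxygen supply of the donor cells mattered, and that against CD147KO-Migs whether CD147 in the donor did. No member reached a 2-fold difference in any of the 3 comparisons between Mig libraries, where 9.34% (hypo-Migs against normo-Migs), 9.12% (hypo-Migs against CD147KO-Migs) and 9.69% (normo-Migs against CD147KO-Migs) of all genes compared did so in either direction. MT2A was lower after hypo-Migs than after normo-Migs by a log2 fold change of -0.35 (-0.40 to -0.31), and MT1X by -0.33 (-0.56 to -0.10), while MT1E differed by -0.15 (-0.22 to -0.08) and MT1F by 0.15 (-0.16 to 0.46). Of the 6960 genes that averaged 1000 reads or more, 25, or 0.359%, differed as much as MT2A or more between hypo-Migs and normo-Migs in either direction. That limit on reads was chosen after seeing the data. Among all 19895 genes compared, including those with few reads, MT2A ranked 17437 from the highest in this comparison. Counting error alone was exceeded by many genes, since the interval did not include 0 for 34.9% of the genes compared.

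Between hypo-Migs and CD147KO-Migs the log2 fold change of MT2A was -0.13 (-0.18 to -0.09), that of MT1E -0.01 (-0.07 to 0.06), that of MT1X -0.24 (-0.48 to -0.02) and that of MT1F -0.21 (-0.50 to 0.08). Between normo-Migs and CD147KO-Migs, MT2A was higher after normo-Migs by 0.22 (0.18 to 0.27) and MT1E by 0.14 (0.07 to 0.21), whereas MT1F was lower at -0.36 (-0.67 to -0.05). MTF1 differed by at most 0.06 between Mig libraries, with each interval including 0. SLC30A1 differed by 0.04 (-0.01 to 0.09) for hypo-Migs against normo-Migs and by 0.10 (0.05 to 0.15) for hypo-Migs against CD147KO-Migs.

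The 6 metallothioneins together had 4015 reads with PBS, 12768 after normo-Migs, 12338 after hypo-Migs and 11518 after CD147KO-Migs. As CPM this was 118 (115 to 122), 369 (363 to 376), 306 (301 to 312) and 329 (323 to 335). The ratio to PBS was 3.22 after normo-Migs, 2.64 after hypo-Migs and 2.83 after CD147KO-Migs, and the ratio of hypo-Migs to normo-Migs was 0.820 (0.8002 to 0.8409). The sum was thus lowest with PBS and, among Mig libraries, highest after normo-Migs.

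The make-up of this sum also differed. MT2A gave 86.2% of the metallothionein reads with PBS, 68.2% after normo-Migs, 65.0% after hypo-Migs and 66.5% after CD147KO-Migs, and MT1E gave 8.44%, 28.0%, 30.8% and 28.9%. For every 100 reads of MT2A there were 9.79 of MT1E (8.74 to 10.95) with PBS, 41.1 (39.55 to 42.77) after normo-Migs, 47.4 (45.6 to 49.3) after hypo-Migs and 43.5 (41.75 to 45.31) after CD147KO-Migs. This ratio is taken within a library and does not depend on how libraries are scaled. MT1X, by contrast, had 4.71 reads (4.0 to 5.51) per 100 reads of MT2A with PBS. After normo-Migs it had 3.84 (3.43 to 4.28), after hypo-Migs 3.905 (3.48 to 4.37) and after CD147KO-Migs 4.23 (3.77 to 4.73). The interval of PBS overlapped that of each Mig library. MT1F had 1.502 (1.12 to 1.98) with PBS, 1.76 (1.49 to 2.06) after normo-Migs, 2.50 (2.16 to 2.87) after hypo-Migs and 2.64 (2.28 to 3.03) after CD147KO-Migs, and the intervals of PBS and normo-Migs overlapped.

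**Figure D3:**
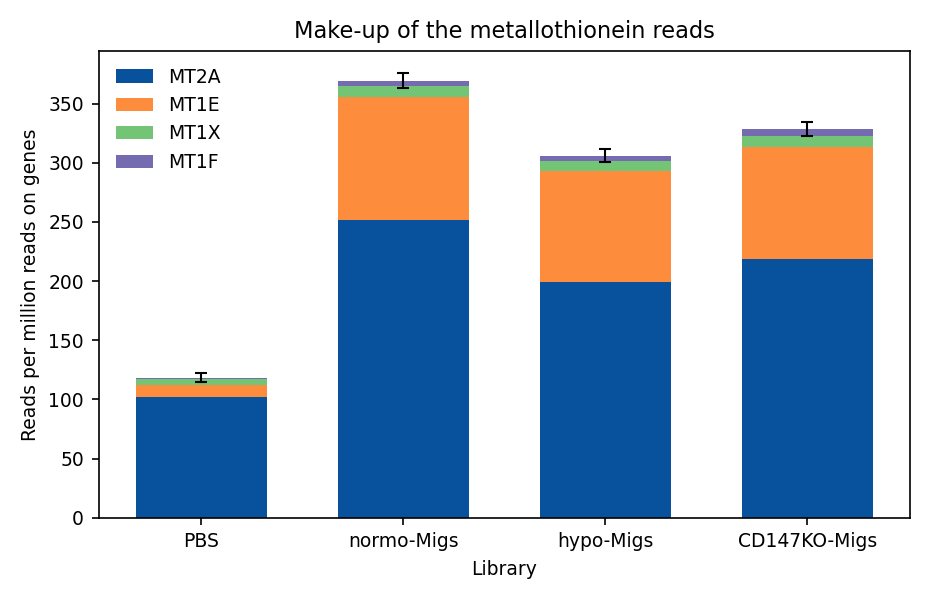
Reads of MT2A, MT1E, MT1X and MT1F in CPM, stacked in 1 bar per library for the 4 libraries. Error bars are 95% Wilson intervals (counting error) of the sum over the 6 metallothioneins. Of the summed reads, MT1E took 8.44% with PBS and 28.0% to 30.8% with Migs, and MT2A 86.2% and 65.0% to 68.2%.

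Levels of different genes were compared per length, as the deposited FPKM. With hypo-Migs the order was MT2A (152 FPKM), MT1E (89.3), SLC30A1 (31.9), MT1X (4.36), MTF1 (4.14) and MT1F (2.62). With PBS it was MT2A (77.04 FPKM), SLC30A1 (26.0), MT1E (9.32), MTF1 (3.69), MT1X (2.66) and MT1F (0.796), so that MT1E stood below SLC30A1 in PBS and above it in the Mig libraries. The gene length behind the FPKM counts all annotated exons, 1773 bases for MT1X and 1889 for MT1F, whereas the coding mRNA has 450 and 690 bases. As CPM per kilobase of coding mRNA, MT1X had 17.3, MT1F 7.20 and MTF1 4.19 after hypo-Migs, and MT1F then stood above MTF1. On the same scale PBS had 10.7 for MT1X, 3.79 for MTF1 and 2.22 for MT1F, so that MT1X stood above MTF1 there too.

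The cluster on chromosome 16 spans 119.1 kb and holds 16 annotated genes, 11 protein-coding and 5 pseudogenes. Outside the members, MT1A had 0 reads with PBS, 6 after normo-Migs, 0 after hypo-Migs and 1 after CD147KO-Migs, the pseudogene MT1DP had 2 to 7 and MT1JP at most 1. The brain metallothionein MT3, the epithelial MT4 and the remaining 5 genes of the cluster had 0 reads in all libraries. Expression thus came from MT2A, MT1E, MT1X and MT1F, which are separated by genes at or near 0. MT2P1, a pseudogene outside the cluster, was the only other metallothionein to reach 10 reads, with 20, 34, 35 and 27 reads from PBS to CD147KO-Migs.

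**Figure D4:**
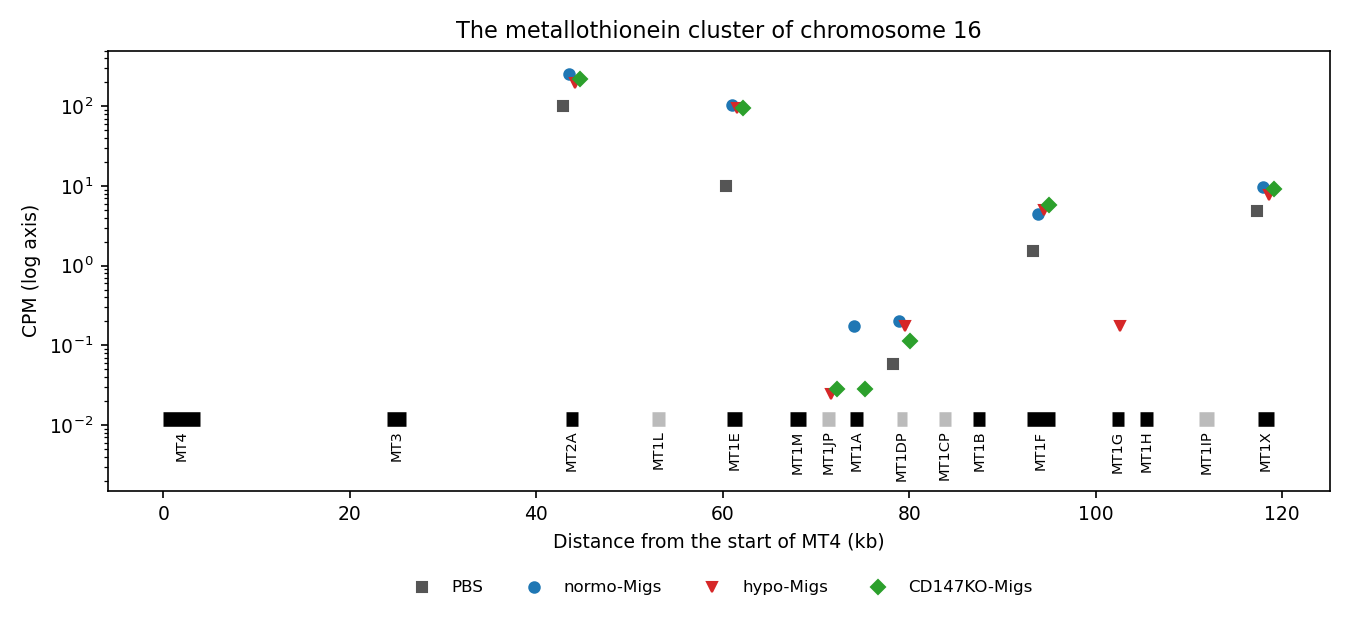
Level in CPM (log axis) of the metallothionein genes by distance from the start of MT4 (kb), 1 symbol per library, with black boxes for protein-coding genes and grey boxes for pseudogenes. Genes at 0 are not drawn, and MT2A, MT1E, MT1F and MT1X were the genes above 1 CPM.

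Other zinc transporters were read from lists of the SLC30A exporters and SLC39A importers. Of 9 further SLC30A genes, 7 were compared, and after hypo-Migs 1 was higher and 1 lower than with PBS by 2-fold, and the median of their log2 fold changes was 0.12 beside 0.04 over all genes compared. Of all genes compared, 18.9% were higher and 11.6% lower in this comparison, so the counts of exporters were near the background. The higher gene was SLC30A3, which loads zinc into vesicles, with 72 reads with PBS, 540 after normo-Migs, 654 after hypo-Migs and 600 after CD147KO-Migs. The lower was SLC30A8, the exporter of insulin granules, chosen for naming after its values were seen, with 7, 0, 2 and 13 reads. Of 14 SLC39A importers, 11 were compared, 2 were higher and 2 lower, again near these shares, and the median was 0.27. SLC39A8, a zinc and manganese importer of the plasma membrane, had 2614, 7562, 9177 and 7676 reads from PBS to CD147KO-Migs, and its log2 fold change after hypo-Migs was 1.59. SLC39A13, of the secretory pathway, was higher by 1.24. SLC39A4, the intestinal zinc importer, had 314, 131, 139 and 101 reads (-1.38 after hypo-Migs), and SLC39A1 112, 85, 53 and 86 (-1.26). No gene of the SLC30A and SLC39A lists reached 2-fold between hypo-Migs and normo-Migs.

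Metallothioneins also bind copper, and of 12 genes of copper handling 11 were compared. With hypo-Migs, 3 were higher than with PBS by 2-fold and 0 lower, beside 18.9% and 11.6% of all genes compared, and the median was 0.12. Ceruloplasmin (CP), the copper-carrying ferroxidase of plasma, had 63 reads with PBS, 631 after normo-Migs, 996 after hypo-Migs and 948 after CD147KO-Migs. The copper pump ATP7A had 722, 2425, 3003 and 2454 reads, and the copper chaperone ATOX1 557, 1139, 1337 and 1171. PBS was the lowest library for all 3 genes. Between hypo-Migs and normo-Migs the only copper gene past 2-fold was SLC31A2, a copper transporter, with 21 and 5 reads, named after its values were seen.

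Known inducers of metallothioneins besides metals were represented by lists of glucocorticoid response genes and of heat shock and metal stress genes. Of 11 glucocorticoid response genes compared, 6 were higher after hypo-Migs than with PBS by 2-fold and 0 lower, beside 18.9% and 11.6% of all genes compared. Their median log2 fold change was 1.06. ZBTB16, a zinc finger factor induced by glucocorticoids, had 0 reads with PBS, 90 after normo-Migs, 79 after hypo-Migs and 56 after CD147KO-Migs. KLF9, a transcription factor, had 190, 1564, 1688 and 1708 reads, and FKBP5, a co-chaperone of the glucocorticoid receptor, had 847, 5371, 6276 and 5599. These 3 genes were lowest with PBS, and the list reached no 2-fold difference between hypo-Migs and normo-Migs. Among the genes below 2-fold after hypo-Migs against PBS were TSC22D3 (0.49), ERRFI1 (0.28) and PER1, the lowest of the list at -0.25. They were named after their values were seen. Whether the metallothioneins and the genes of this list share a cause was not tested.

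Of 16 heat shock and metal stress genes, 1 was higher and 2 were lower after hypo-Migs than with PBS, beside 18.9% and 11.6% of all genes compared, and the median was -0.33. None of the 16 reached 2-fold for hypo-Migs against normo-Migs. HMOX1, the heme oxygenase that is induced by oxidants and heavy metals, had 583 reads with PBS, 1142 after normo-Migs, 1389 after hypo-Migs and 1150 after CD147KO-Migs, a log2 fold change of 1.03 after hypo-Migs. HSPA1A, the inducible heat shock protein, had 14602, 2886, 2894 and 2357 reads (-2.55), and its near-identical copy HSPA1B 8458, 2934, 3193 and 2677 (-1.62), although the split of reads between these copies is uncertain. Both copies were highest in the PBS library.

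**Figure D5:**
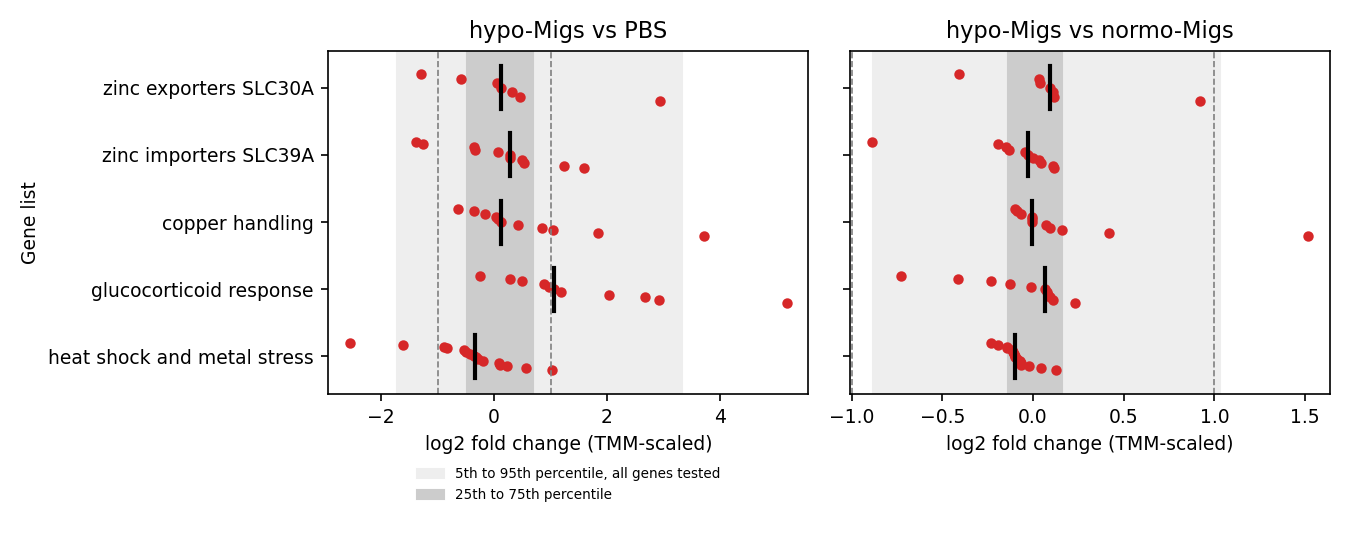
Log2 fold changes of the SLC30A, SLC39A, copper, glucocorticoid and heat shock lists after hypo-Migs against PBS and against normo-Migs, 1 point per gene compared, with a bar at the median of each list, dashed lines at 2-fold and shading for percentiles of all genes compared. Of these 5 lists, the highest point against PBS is ZBTB16, at 0 reads in PBS, whose fitted value depends on the prior count, and against PBS the medians of these lists ran from -0.33 (heat shock and metal stress) to 1.06 (glucocorticoid response), beside 0.04 over all genes.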

How the data were processed

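RNA-seq libraries of MHCC-97H cells, 1 per condition, were grouped by their labels. The authors deposited raw counts, the reads counted per gene without normalization, and FPKM, scaled by the authors for gene length and library size. The submitters' processing notes name CASAVA 1.8, fastp, HISAT2 2.0.5, featureCounts 1.5.0-p3 and hg38. Handling of strands and of reads that map to several genes is not given in the sources used here, and reads carried no molecular identifiers. The labels name a SMARTer mRNA kit, whereas the supplementary methods describe poly-T beads. The columns held 0 samples of other series.

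The 19895 genes that reached 10 reads in a library were compared in edgeR 4.0.16 (R 4.3.3) with TMM scaling (factors 0.986 to 1.02) and a prior count of 2. With 1 library per condition no test between conditions exists, so a gene was called at a log2 fold change of at least 1 in size, and no p-value is given. Ratios of reads have exact 95% intervals and shares Wilson intervals. A count of 0 allows up to 3 reads. Alternatives concerned scaling (also the size factors of DESeq2 1.42.0), filters, prior count, FPKM and the call rule. Fits were tested on simulated data. Python 3.11.15, numpy 2.4.6, pandas 2.3.3, scipy 1.17.1, matplotlib 3.10.9 and Biopython 1.88 were used.

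The members and lists were chosen with earlier results of these data known. The text names all members, and from each list up to 3 genes each way against PBS and up to 2 each way between hypo-Migs and normo-Migs, past 2-fold and with a mean of at least 50 reads, plus other metallothioneins with at least 10 reads and the 5 protein-coding genes averaging 100 reads or more whose levels lay closest to the summed metallothioneins.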

Additional observations from a re-analysis of the deposited data

How the results depend on the processing

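The number of members past 2-fold changed with the filter and with the scale. With no filter on reads, MT1G, at 7 reads after hypo-Migs and 0 elsewhere, entered, and the count became 1 instead of 0 for hypo-Migs against normo-Migs, 1 instead of 0 for hypo-Migs against CD147KO-Migs, and 4 instead of 2 for hypo-Migs against PBS, where MT2A also passed. On log2(FPKM + 1) the count for normo-Migs against PBS was 2 (MT1E and MT2A) instead of 4. MT2A also passed after hypo-Migs against PBS when 10 reads were asked of every library, and MT1X no longer passed after normo-Migs when libraries were scaled by total reads. With the reads on protein-coding genes as denominator, the summed metallothioneins were 381 CPM after normo-Migs, 316 after hypo-Migs and 339 after CD147KO-Migs, each beyond its counting interval. Of 270 log2 fold changes of single members under alternatives, 267 moved by less than counting error, 3 moved further (MT1F against PBS on log2(FPKM + 1)) and 0 changed sign while called. TMM over the Mig libraries alone left MT2A at -0.35 between hypo-Migs and normo-Migs. No paired analysis was possible because each condition had 1 library. Without replicates, differences between Mig libraries have no error beyond counting, and MT1F and MT1X rest on few reads.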

Other observations

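The protein-coding genes outside the family whose levels over the 4 libraries lay closest to the summed metallothioneins, among 11435 candidates, were TRIM7, EML6, GPC2, CCR10 and ANKRD33B, at a Euclidean distance of 0.083, 0.0885, 0.0887, 0.0963 and 0.101 in centred log2 CPM. TRIM7, a ubiquitin ligase, had 387 reads with PBS, 1215 after normo-Migs, 1265 after hypo-Migs and 1149 after CD147KO-Migs. These genes were not alone, since 41 of the 11435 candidates lay within 0.2 and 587 within 0.5.

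Among protein-coding genes within 250 kb of the metallothionein cluster, GNAO1, NUDT21, OGFOD1, BBS2, NUP93 and HERPUD1 had log2 fold changes against PBS between -0.68 and 0.48, and between -0.06 and 0.08 for hypo-Migs against normo-Migs. SLC12A3, the thiazide-sensitive sodium chloride cotransporter, lies 181 kb beyond the cluster and was singled out after its values were seen. It had 39 reads with PBS, 7023 after normo-Migs, 10140 after hypo-Migs and 8729 after CD147KO-Migs, a log2 fold change of 7.44, 7.74 and 7.72 against PBS and of 0.29 for hypo-Migs against normo-Migs.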
